A study of Mus musculus with 9 samples.

Results

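The genes described here are 10 reference genes, transcripts whose level is taken as steady so that other transcripts can be measured against them. Gapdh, Ywhaz and H2afz were the references of the study's RT-qPCR assays, with Gapdh and Ywhaz paired for the fetal cortex and H2afz and Ywhaz for the cerebellum and heart. Actb, Tbp, Hprt, B2m, Ppia, Gusb and Sdhaf2 are usual alternatives. Each symbol was found at 1 of the 27095 loci of the deposited table, so all 10 genes could be followed.

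RNA-seq was performed on 9 wild type fetuses of strain C57BL/6 in the labels and C57BL/6J in the methods, collected on gestational day 17, with 3 animals in each of 3 groups. Control fetuses came from dams given lactated Ringer's solution, without EtOH. EtOH-exposed fetuses were those of dams that received EtOH by injection, at a dose of 2.9 g/kg and on gestational day 7. They were divided into an affected group with ocular and cortical patterning defects and an unaffected group without them. The affected group was therefore chosen by phenotype among exposed animals, and the litter of each animal was not given in the sources used here. The paper reports that most of its affected samples were female, and the group values used here do not separate the sexes. The labels name the tissue as fetal brain and the methods as cortex, and all 9 markers of cortical neurons and progenitors examined here were above 0 in every group, with a summed level of 883 to 1109 FPKM. Markers of other cell types with a row of their own were above 0 as well. These values therefore do not tell cortex from whole brain.

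The levels are FPKM, the number of sequenced fragments scaled to the length of the transcript and to the size of the library. The table holds 1 FPKM per group, taken over its 3 animals, and no value of a single animal was used. No spread between animals could be computed, so the differences below carry neither an error nor a test, and the 3 comparisons share groups with each other. A gene was counted as different where 2 groups stood at least 1.2-fold apart, and the same count over 15455 loci with a mean of at least 1 FPKM and no group at 0 served as background. Library depths are not given in the sources used here, so no counting interval was computed, and a lower share of cells of a type cannot be told apart from less RNA per cell.

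The reference genes work in unrelated parts of the cell. Gapdh encodes the glycolytic enzyme that oxidizes glyceraldehyde 3-phosphate, and Ywhaz encodes 14-3-3 zeta, an adaptor that binds phosphorylated proteins. H2afz encodes the histone variant H2A.Z, which is placed in nucleosomes near gene starts. Actb encodes cytoplasmic beta-actin, and Tbp the TATA-binding protein of the general transcription factor TFIID. Hprt returns purine bases to nucleotides, and Ppia is cyclophilin A, a prolyl isomerase and the receptor of cyclosporin. B2m is the light chain of MHC class I molecules, Gusb is a lysosomal beta-glucuronidase, and Sdhaf2 attaches the flavin cofactor to succinate dehydrogenase. A reference gene is useful only while its level does not move with the condition under study, and a target is reported as its ratio to 1 or more references.

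The deposited loci, in mm10, lay at chr6:125161852-125165583 for Gapdh, chr15:36770262-36796929 for Ywhaz and chr3:137864599-137866922 for H2afz. Actb lay at chr5:142903116-142906724, Tbp at chr17:15499858-15518698 and Hprt at chrX:52988078-53021662. Ppia lay at chr11:6415870-6419810, Gusb at chr5:129989021-130002861 and Sdhaf2 at chr19:10500512-10525209. Each of these 9 loci covered exons and introns of the named gene and no other annotated gene, and the locus of B2m, which is wider than its gene, is described further on.

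The study's primers show which part of each reference transcript its RT-qPCR reads. They are shown for Ywhaz and H2afz, 5′ to 3′, and the capitals in the H2afz reverse primer mark the bases that lie in exon 3, while the rest of that primer lies in exon 4.
Ywhaz forward: ttgatccccaatgcttcgc
Ywhaz reverse: cagcaacctcggccaagtaa
H2afz forward: ccaagacaaaggcggtttcc
H2afz reverse: tcctgccaactcaagtacCTCTG
Placed on GENCODE M21 transcripts of GRCm38 (the assembly also called mm10), the Ywhaz primers lay at chr15:36776333-36776351 and chr15:36776264-36776283, both within coding sequence of exon 4 on the minus strand. Their product is 88 bases long, and both primers also matched Gm4202, a processed pseudogene, without a mismatch. The H2afz forward primer lay in coding sequence of exon 2, at chr3:137865167-137865186. Its reverse partner crosses the junction of exons 3 and 4, with 5 of its 23 bases in exon 3, and the product is 176 bases long. Both H2afz primers also matched the processed pseudogenes Gm6108 and Gm8203. None of these 3 pseudogenes has a row of its own in the deposited table.

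Promoter sequence is shown for Hprt and Ppia, whose levels had the most constant ratio of any 2 reference genes, and for Gapdh, whose levels followed another pattern. Each run is the 120 bases before the RefSeq gene start in build GRCm38.p6, on the strand of the gene. Capitals mark 3 motifs, each searched on both strands and with overlaps allowed. The motif TATAAA is the core of the TATA box, CCAAT is the motif bound by the factor NF-Y, and GGGCGG is the GC box bound by Sp1 family factors.
Hprt: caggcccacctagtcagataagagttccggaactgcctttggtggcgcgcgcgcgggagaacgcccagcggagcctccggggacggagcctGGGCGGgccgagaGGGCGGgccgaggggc
Ppia: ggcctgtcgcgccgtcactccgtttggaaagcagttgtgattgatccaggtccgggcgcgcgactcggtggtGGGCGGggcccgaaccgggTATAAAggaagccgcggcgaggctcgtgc
Gapdh: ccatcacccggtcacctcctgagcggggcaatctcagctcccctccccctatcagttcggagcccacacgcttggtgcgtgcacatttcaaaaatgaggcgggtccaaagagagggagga
The Hprt window, chrX:52987958-52988077 on the plus strand, held 2 GC boxes. The Ppia window, chr11:6415747-6415866 on the plus strand, held 1 GC box at -48 and 1 TATA box at -29, counted from the gene start. The Gapdh window, chr6:125165774-125165893 on the minus strand, held none of the 3 motifs. Over 32851 windows of the same length, the GC box was found in 26.5%, the CCAAT motif in 21.3% and the TATA box in 6.34%. Of the genes not printed, Tbp held 1 GC box, Sdhaf2 2 GC boxes, B2m 1 CCAAT motif and Gusb none. Of the 10 genes, 7 had a promoter entry, and Ywhaz, H2afz and Actb had none.

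The reference genes covered a wide range of abundance. Ppia was the most abundant, with a mean of 2013 FPKM, above 99.5% of the background loci. Actb followed at 1261 FPKM, and Gapdh, H2afz and Ywhaz lay close together at means of 469.8, 428 and 308 FPKM. Hprt and B2m were at 39.5 and 36.5 FPKM, Tbp at 20.6 FPKM and Sdhaf2 at 13.9 FPKM. Gusb was the scarcest, at 5.88 FPKM, above 41.3% of loci.

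**Figure D1:**
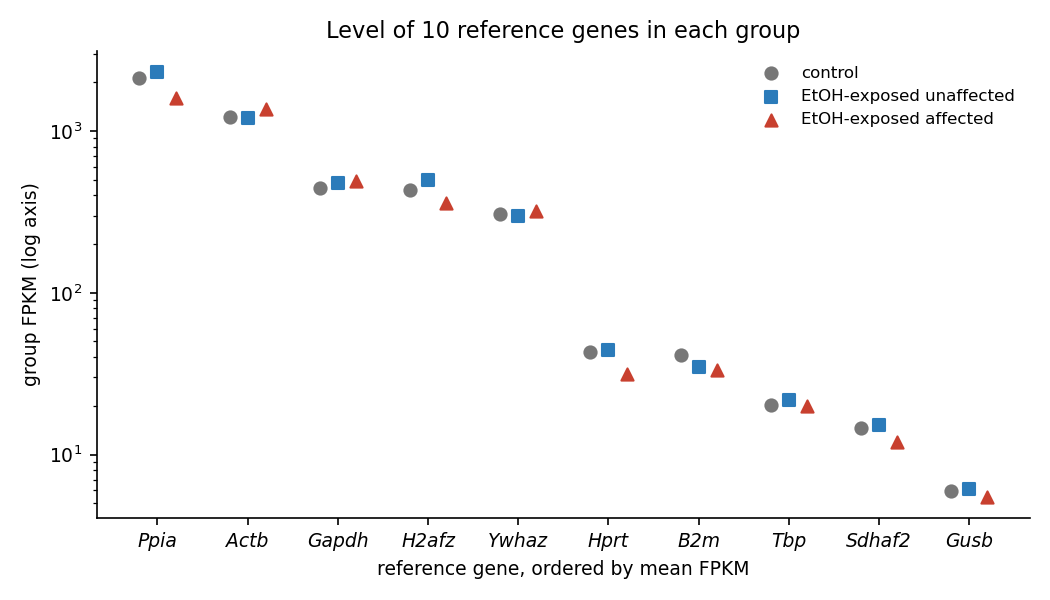
Group FPKM (log axis) of the 10 reference genes, ordered by mean FPKM, in the control (grey), unaffected (blue) and affected (red) groups, with 1 value per group and no error. The affected group is the lowest for Ppia, from 2315 in the unaffected group to 1598, while for Actb it is the highest, at 1363.

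Gapdh was higher in both exposed groups than in the control group. Its level was 442 FPKM in the control group, 477 in the unaffected group and 490.4 in the affected group. The affected group thus stood 10.9% above the control group, a log2 ratio of 0.15, which is inside the 1.2-fold limit. With a trend over transcript length removed, as described further on, this ratio became 0.31, past the limit, and that of the unaffected against the control group went from 0.11 to 0.0034. Of all loci, 22.2% had a smaller range over the 3 groups.

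Ywhaz was the steadiest of the 10 genes. It measured 308 FPKM in the control group, 297 in the unaffected group and 319 in the affected group. The unaffected and affected groups were its lowest and highest, with a log2 ratio of 0.10 between them, and 13.2% of loci had a smaller range. Ywhaz and Gapdh, the pair used for the cortex, were both highest in the affected group, and their lowest groups differed.

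H2afz, the third of the RT-qPCR references, varied more. It measured 430.2 FPKM in the control group, 497 in the unaffected group and 356 in the affected group. The unaffected group was 15.5% above the control group, whereas the affected group was 17.2% below it, a 1.21-fold difference that lies just past the limit. Between the exposed groups the difference was 1.39-fold, with a log2 ratio of -0.48, and 75.6% of loci had a smaller range. With a trend over transcript length removed, as described further on, this ratio became -0.11. That of the affected against the control group became -0.03, and both were then inside the limit.

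Among the alternatives, Ppia and Hprt were much alike in pattern. Ppia, cyclophilin A, measured 2125 FPKM in the control group, 2315 in the unaffected group and 1598 in the affected group. Its affected group was 1.33-fold below the control group and 1.45-fold below the unaffected group, the largest range of the 10 genes at 0.53 on the log2 scale. Hprt, the purine salvage enzyme, measured 42.8, 44.2 and 31.5 FPKM in the control, unaffected and affected groups. Its affected group was 1.36-fold below the control group and 1.40-fold below the unaffected group. For both genes the control and unaffected groups lay near each other and the affected group stood apart below them. With the length trend removed, Ppia stood at -0.20 in the affected group against the control group and -0.19 against the unaffected group. Hprt stood at -0.25 and -0.18, so both genes were then inside the limit.

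Sdhaf2, the assembly factor of succinate dehydrogenase, had the same order of groups with a smaller range. It measured 14.6, 15.2 and 11.9 FPKM in the control, unaffected and affected groups, so that the affected group was 1.22-fold below the control group and 1.27-fold below the unaffected group. B2m, the MHC class I light chain, was the only gene that was highest in the control group, with 41.4 FPKM there, 34.6 in the unaffected group and 33.5 in the affected group. The log2 ratio of B2m was -0.26 for the unaffected and -0.31 for the affected group against the control group, and -0.05 between the exposed groups. B2m is the gene that lies nearest to the limit from inside, with a log2 ratio of -0.258 in the unaffected group against the control group where the limit is 0.263 either way.

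The other 3 alternatives stayed inside the limit in every comparison on the FPKM as deposited, and corrections for transcript length, given further on, moved Actb and Tbp. Actb measured 1214, 1206 and 1363 FPKM in the control, unaffected and affected groups, with the affected group 12.3% above the control group. Tbp measured 20.2, 21.8 and 19.9 FPKM, with a log2 ratio of 0.11 for the unaffected and -0.02 for the affected group against the control group. Gusb measured 5.99, 6.15 and 5.50 FPKM, and its affected group was 8.16% below the control group. Actb was thus highest in the affected group, like Gapdh and Ywhaz, while Tbp and Gusb were highest in the unaffected group.

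Counted together, none of the 10 genes was 1.2-fold apart in the unaffected group against the control group, where 16.9% of all loci were, 9.57% lower and 7.33% higher. All 10 genes have a locus of 1 symbol and a mean of at least 5 FPKM, and the share past the limit was 7.76% among loci with 1 symbol and 8.51% among loci with at least 5 FPKM. Centring the ratios on the median of all loci put B2m past the limit and made this count 1. In the affected group against the control group, 5 genes were past the limit and all 5 were lower, namely H2afz, Hprt, B2m, Ppia and Sdhaf2. Over all loci 33.7% were past it, 15.9% lower and 17.8% higher. In the affected against the unaffected group, 4 genes were past the limit and again all were lower, namely H2afz, Hprt, Ppia and Sdhaf2. The background there was 48.6%, of which 23.3% of loci were lower and 25.4% higher. In the comparisons with the affected group, 50% and 40% of the 10 genes were thus past the limit in either direction, beside 33.7% and 48.6% of all loci, and no test of these shares was made. With a trend over transcript length removed, as described further on, the direction was no longer shared, with 1 gene lower and 1 higher against the control group and 1 lower and 3 higher against the unaffected group.

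**Figure D2:**
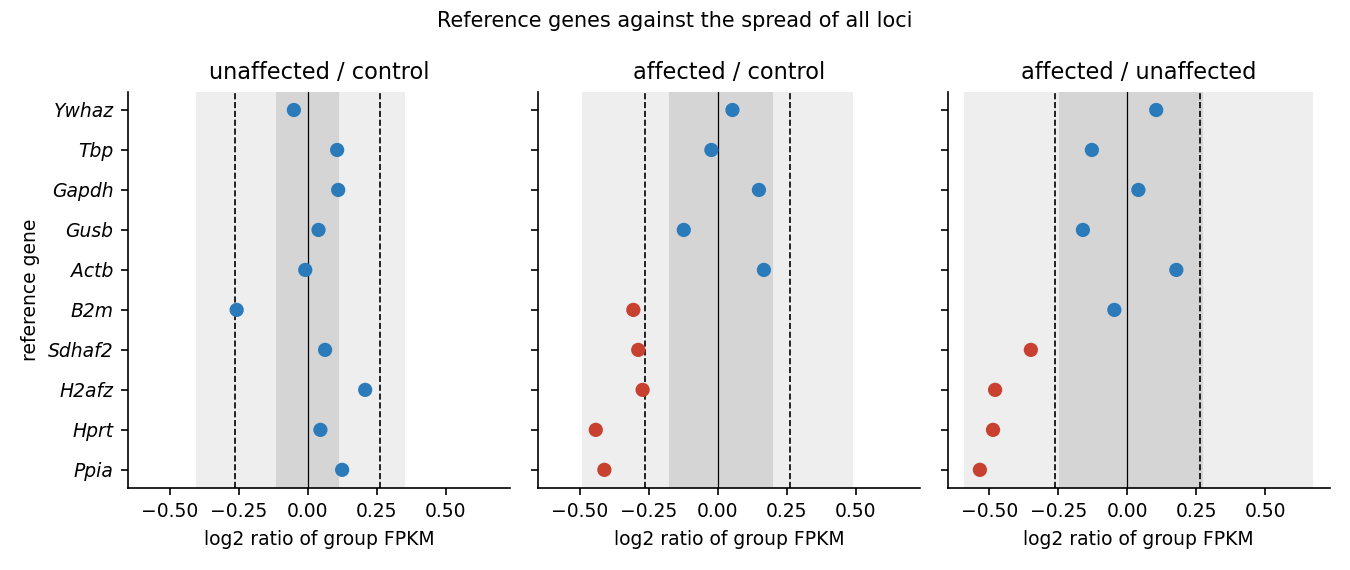
Log2 ratio of group FPKM for each reference gene in the 3 comparisons, ordered by range over the groups, with genes past 1.2-fold (dashed lines) in red. The dark band holds the middle 25th to 75th percentile of 15455 loci and the pale band the 5th to 95th, and all 10 genes lie within the pale band in each comparison.

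The median log2 ratio of the 10 genes was 0.05 in the unaffected group against the control group, -0.20 in the affected group against the control group and -0.15 in the affected against the unaffected group. Over all loci the medians were 0.01, 0.02 and 0.01. With the length trend removed, as described further on, the medians of the 10 genes were 0.0082, -0.037 and -0.045 in the same order.

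Because references are used as ratios, the range of each ratio over the 3 groups was computed for all 45 pairs. Hprt and Ppia had the most constant ratio, with a range of 0.08 on the log2 scale, followed by Tbp with Gusb at 0.10 and Ywhaz with Actb at 0.11. The cortex pair Gapdh and Ywhaz ranked 8 of 45, with a range of 0.16. The pair H2afz and Ywhaz ranked 39 of 45, with a range of 0.58. These ranks are for the FPKM as deposited. They were not recomputed with the trend over transcript length removed that is described further on. With it removed, the affected group against the control group stood at 0.31 for Gapdh, 0.01 for Ywhaz and -0.03 for H2afz. The unaffected group stood at 0.0034, -0.04 and 0.09. H2afz thus lay nearer to Ywhaz than Gapdh did in the affected group and further from it in the unaffected group. Actb with Ppia was the least constant pair, at 0.71, or 1.64-fold. In all, 13 pairs had a range below 1.2-fold, and the median range was 0.35.

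Grouping the genes after these values were seen, Gapdh, Ywhaz, Actb, Tbp and Gusb had ranges of 0.10 to 0.34 among themselves, and H2afz, Hprt and Ppia had 0.08 to 0.17. Every pair with a member in each group had a range of 0.32 to 0.71. This grouping is for the FPKM as deposited and was not repeated with the length trend removed. With it removed, H2afz and Tbp stood at -0.03 and 0.04 in the affected group against the control group, and Gapdh at 0.31. A constant ratio therefore did not mark genes that were themselves constant, since Hprt and Ppia were also among the genes with the largest ranges. Averaged over its 9 pairs, Gusb had the smallest range, at 0.28, and Actb the largest, at 0.44.

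**Figure D3:**
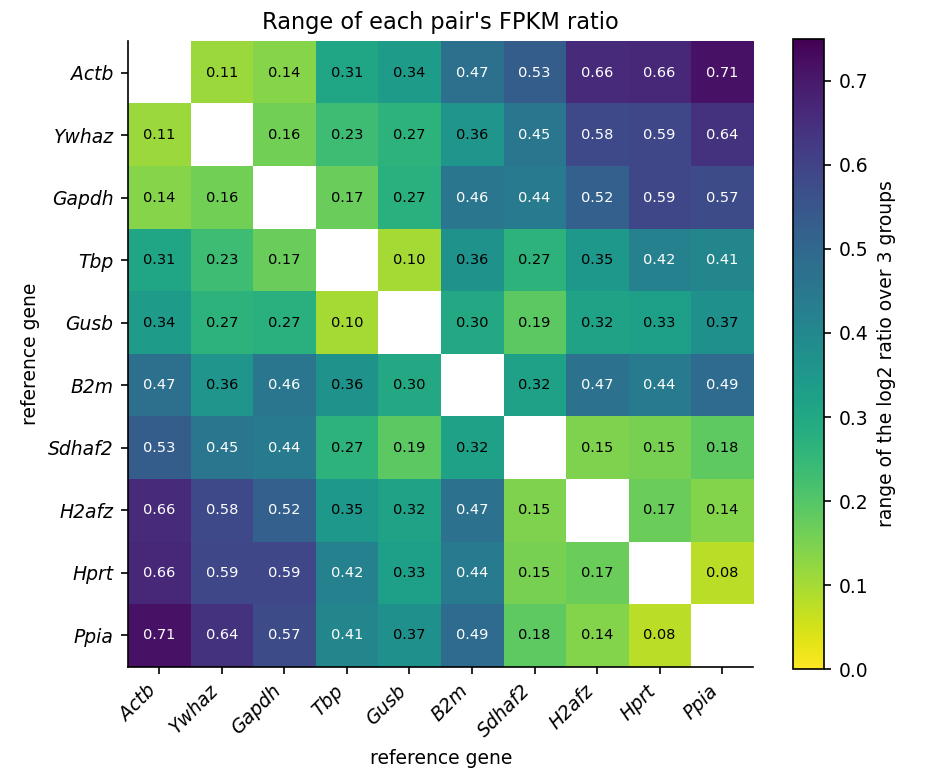
Range over the 3 groups of the log2 ratio of FPKM as deposited for each of the 45 pairs of reference genes, where darker cells are wider ranges. The top left block with Actb, Ywhaz and Gapdh and the bottom right block with Sdhaf2, H2afz, Hprt and Ppia are pale, at 0.08 to 0.18, and the cells that join these blocks reach 0.71.

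The geometric mean of the paired references was then followed as the denominator of an RT-qPCR assay would be. The study took H2afz in place of Gapdh for the cerebellum and heart, citing greater stability. How that pair behaves in those tissues was not examined here. The mean of Gapdh and Ywhaz was 369 FPKM in the control group, 376 in the unaffected group and 396 in the affected group. Its log2 ratio was 0.03 for the unaffected and 0.10 for the affected group against the control group. The mean of H2afz and Ywhaz was 364, 384 and 337 FPKM in the same order, with log2 ratios of 0.08 and -0.11. Gapdh and Ywhaz together were thus highest in the affected group, where H2afz and Ywhaz were lowest on the FPKM as deposited. In the affected group against the control group, the log2 ratio of H2afz and Ywhaz went from -0.11 to -0.012 with the length trend removed, and to 0.0012 with the longest coding transcript as the length, where the affected group was no longer the lowest. The mean of all 10 genes was 117 FPKM in the control group, 119.8 in the unaffected group and 105 in the affected group.

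These denominators shifted the ratios of 10 RT-qPCR targets. The targets of the respiratory chain and ATP synthase and the upregulated targets had been picked for their differences in these same samples, so their counts and directions as FPKM are a description and no independent evidence. Atp5e, a subunit of ATP synthase, measured 575 FPKM in the control group, 628 in the unaffected group and 354 in the affected group. Its log2 ratio in the affected group against the control group was -0.70 as FPKM, -0.80 relative to Gapdh and Ywhaz and -0.59 relative to H2afz and Ywhaz. Satb1, a chromatin organizer, measured 14.4, 11.6 and 16.9 FPKM. For Satb1 the same comparison gave 0.23 as FPKM, 0.13 relative to Gapdh and Ywhaz and 0.34 relative to H2afz and Ywhaz.

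All 5 respiratory chain and ATP synthase targets were at least 1.2-fold lower in the affected group than in the control group on each of these scales, where 15.9% of all loci were lower and 17.8% higher as FPKM. The number of targets that were higher depended on the denominator. Of the 5 others, 4 were past 1.2-fold as FPKM and relative to Gapdh and Ywhaz, and all 5 relative to H2afz and Ywhaz. The target that crossed the limit was Satb1. In the affected against the unaffected group the counts were 5 lower and 5 higher on each scale, where 23.3% of all loci were lower and 25.4% higher as FPKM. In the unaffected group against the control group 3 targets were lower as FPKM or relative to Gapdh and Ywhaz, and 4 relative to H2afz and Ywhaz, with none higher, where 9.57% of all loci were lower and 7.33% higher as FPKM. The 5 respiratory chain and ATP synthase targets had transcripts of 421 to 1001 bases, and the 5 others of 6243 to 7261 bases. Ratios of all loci ran with length in the same direction, as described further on. For loci as long as Cox7b and Cntn2 the median of affected against control was -0.24 and 0.24, beside -0.59 and 0.45 for these genes. Target counts with this trend removed were not made.

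**Figure D4:**
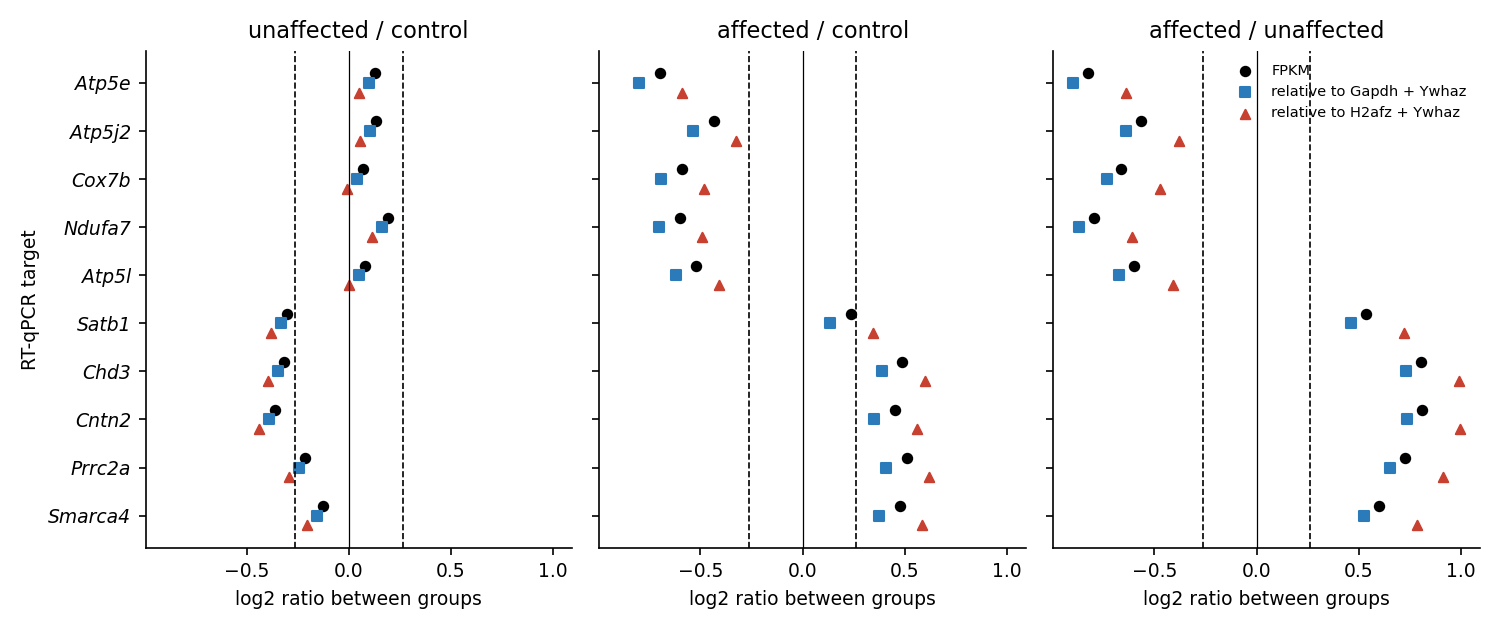
Log2 ratio between groups for 10 RT-qPCR targets as FPKM (black), relative to the mean of Gapdh and Ywhaz (blue) and relative to the mean of H2afz and Ywhaz (red), with 1.2-fold as dashed lines. In the comparisons with the affected group the red points lie to the right of the blue ones for every target, by 0.21 against the control group and 0.26 against the unaffected group.

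The close relatives of the references were compared next. Actg1, the gamma-actin gene, measured 1746, 1757 and 2004 FPKM in the control, unaffected and affected groups, and like Actb it was highest in the affected group. H2afv, which encodes a second form of H2A.Z, measured 92.4, 110.7 and 79.5 FPKM, with its highest value in the unaffected and its lowest in the affected group, as for H2afz. Gapdhs, the glycolytic enzyme of sperm, was at 0.64 to 0.90 FPKM in all groups.

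Each reference was also set within a list of genes of its own pathway, with the all-locus medians above for comparison and, in the affected group against the control group, 15.9% of all loci lower and 17.8% higher. Of 16 glycolytic genes, none was past 1.2-fold in the unaffected group, and 1 was lower and 1 higher in the affected group against the control group, with a median of -0.05. Pkm, pyruvate kinase, was the most abundant, at 366, 384 and 413 FPKM. Hk2, hexokinase 2, had the widest range of the list, at 1.35, 1.31 and 1.87 FPKM. Among the other 14-3-3 genes, 5 passed the filter and 1 was lower in the affected group, Ywhaq, at 449.5, 495 and 368 FPKM, while the most abundant, Ywhae, stood at 994, 1029 and 915 FPKM. Ywhaz had a smaller range than 4 of these 5, at 0.10 against 0.07 for Ywhab.

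For the partners of H2afz, 12 genes of H2A variants and H2A.Z exchange had a median of -0.02 in the affected group against the control group, with none lower and 1 higher. The higher gene was Ep400, the ATPase of the exchange complex, at 10.5, 9.86 and 14.6 FPKM. H2afy2, a macroH2A variant, was the most abundant and nearly level at 155, 162 and 154 FPKM. Of 19 genes of actin and its binding proteins, 5 were lower and none higher in the affected group, beside 15.9% of all loci lower and 17.8% higher, with a median of -0.22, and Actb itself was on the other side of 0 at 0.17. Tmsb10, a thymosin that binds actin monomers, was the most abundant of these at 11230 FPKM in the control group, 11950 in the unaffected group and 9197 in the affected group. Arpc1b, a subunit of the Arp2/3 complex, had the widest range, from 13.3 FPKM in the unaffected to 9.41 in the affected group.

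Of 23 genes of TFIID and polymerase II initiation, 2 were lower and 3 higher in the affected group against the control group, with a median of -0.03. Polr2a, the largest subunit of polymerase II and itself a usual reference, measured 19.1, 16.2 and 29.4 FPKM, and Taf9, a TFIID subunit, 188, 207 and 153 FPKM. Tbp lay between them, with a log2 ratio of -0.02 in that comparison against 0.62 for Polr2a and -0.29 for Taf9. Of 15 genes of purine salvage and synthesis, 2 were lower and none higher, with a median of -0.03. Aprt, which salvages adenine as Hprt salvages hypoxanthine and guanine, measured 84.6, 95.6 and 69.1 FPKM, and Paics, an enzyme of purine synthesis, 108, 120.2 and 95.2 FPKM.

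Of 17 cyclophilins and FK506-binding proteins, 5 were lower and none higher in the affected group against the control group, beside 15.9% of all loci lower and 17.8% higher, with a median of -0.16. Ppih, a cyclophilin of the spliceosome, had the widest range, at 55.0, 64.7 and 39.9 FPKM. Fkbp1a, the most abundant of these relatives, was nearly level at 248, 245 and 240.0 FPKM. Of 8 genes of MHC class I presentation past the filter, 3 were lower and none higher, with a median of -0.18. Psmb10, a subunit of the immunoproteasome, measured 9.57, 10.2 and 6.41 FPKM, and Calr, a chaperone of class I assembly, 376, 389 and 355 FPKM.

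Of 23 lysosomal genes, 2 were lower and 3 higher, with a median of -0.06, and the most abundant, Lamp1, measured 129, 135 and 126 FPKM. Gla, alpha-galactosidase, had the widest range of that list, at 2.40, 2.81 and 2.02 FPKM. Of 6 genes of succinate dehydrogenase and its assembly, 1 was lower in the affected group against the control group and 5 against the unaffected group, where 23.3% of all loci were lower, with medians of -0.20 and -0.40. Sdhd, a membrane anchor of the enzyme, measured 99.0, 112 and 69.6 FPKM, and Sdhb, its iron-sulfur subunit, 208, 228 and 178 FPKM. Sdhaf2 had the same order of groups as both.

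A further 25 genes that are often used as references passed the filter. In the affected group against the control group 8 were lower and 4 higher, and against the unaffected group 12 were lower and 6 higher, with medians of -0.16 and -0.25. Over all loci 33.7% and 48.6% were past the limit in these comparisons. Rpl32, a ribosomal protein gene and the most abundant, measured 2228, 2439 and 1518 FPKM. Polr2a had the widest range of this list as well. Eef1a1, a translation elongation factor used in the same way, was listed at 0 in all 3 groups and was left out.

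Several loci were steadier than the 10 genes. Among 865 loci with 1 symbol and a mean of at least 100 FPKM, 120 had a smaller range than Ywhaz, 182 than Gapdh and 694 than Ppia. The 5 steadiest were Tubb3, Calm3, Zfp428, Tcf25 and Pqbp1. Tubb3, a neuronal beta-tubulin, measured 1809, 1807 and 1799 FPKM, and Calm3, a calmodulin gene, 448, 450.3 and 452 FPKM. These were picked as the extremes of many loci on group values with no error, and whether they stay level between animals was not tested.

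The genes most like the main references in their 2 log2 ratios against the control group were found by Euclidean distance among 6569 loci over the 3 group values. Dpysl4, Naa40 and Dusp1 lay nearest to Gapdh, at distances of 0.0020 to 0.0051. Ppp1r18, Topors and Klhl24 lay nearest to Ywhaz, at 0.0026 to 0.0050. Ntmt1, Nhp2 and Snhg8 lay nearest to H2afz, at 0.0039 to 0.012, and Mprip, Gna11 and Mt2 nearest to Actb, at 0.0050 to 0.0070. With only 3 values per gene such neighbours are a description of these groups.

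Shared sequence and the span of a locus bear on how these FPKM can be read. For Gapdh, 82.5% of the 50-base windows of its transcript, the length of a read, occurred also in transcripts of other genes, with matches in 222 genes. The share was 69.6% for H2afz, 54.3% for Ppia, 19.9% for Ywhaz and 14.2% for Actb, and it was 0% for Tbp, Hprt, B2m, Gusb and Sdhaf2. How the authors' counting divided such reads is not given in the sources used here, so the levels of Gapdh, H2afz and Ppia are the least certain in this respect. Hprt, with no shared window, and Ppia had the most constant ratio, and the part of shared reads in the level of Ppia was not tested. The deposited B2m locus, chr2:122120108-122186189, spans 66082 bases against 5398 for the annotated gene and also covers Patl2 and Trim69, whose own rows were at or below 0.01 FPKM in every group.

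Transcript length moved with the ratios of all loci. Over 12130 loci with an annotated transcript, the log2 ratio correlated with transcript length across genes with a Spearman rho of -0.53 in the unaffected group against the control group, 0.57 in the affected group against the control group and 0.65 between the exposed groups. Genes are not independent replicates, and the points share the same group libraries. The fifth of loci with the shortest transcripts, up to 1595 bases, had a median log2 ratio of -0.21 in the affected group against the control group, and the fifth with the longest, from 4801 bases, had 0.21. The 10 reference transcripts were 860 (B2m) to 3288 bases (Ywhaz) long, and H2afz, Ppia and Hprt were 1069, 1170 and 1289 bases. The Atp5e and Satb1 transcripts above were 421 and 6243 bases.

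Taking away the running median over length changed which references were past 1.2-fold. The transcript was the one inside the deposited locus. In the affected group against the control group 2 of the 10 were then past it, Sdhaf2 lower at -0.32 and Gapdh higher at 0.31, in place of 5. H2afz moved from -0.27 to -0.03, B2m from -0.31 to -0.04, Ppia from -0.41 to -0.20 and Hprt from -0.44 to -0.25. In the affected against the unaffected group 4 were past it, Sdhaf2 lower at -0.36 and Gapdh, Actb and B2m higher at 0.32, 0.34 and 0.36, while in the unaffected group against the control group B2m alone was, at -0.38. Ywhaz was then at -0.04 in the unaffected and 0.01 in the affected group against the control group, and at 0.04 between the exposed groups. Of the 12130 loci, 5.23% were past the limit after this step in the unaffected group against the control group, 16.7% in the affected group against the control group and 26.9% between the exposed groups. With the longest coding transcript of each gene as the length instead, 4 genes were past the limit in the affected group against the control group, 6 against the unaffected group, and 2 in the unaffected group against the control group. Tbp differed most between these choices, at 0.29, -0.28 and -0.57 in the unaffected against the control, the affected against the control and the affected against the unaffected group, since its longest annotated transcript runs past the deposited locus. What the length trend comes from was not tested.

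**Figure D5:**
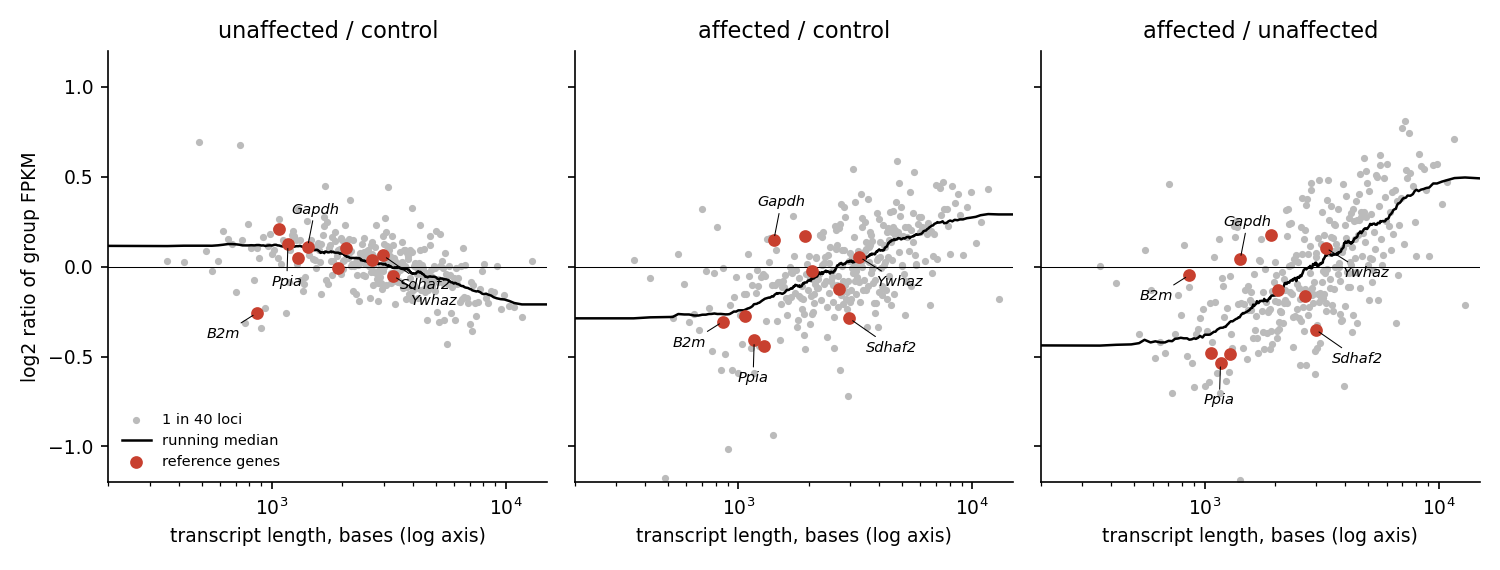
Log2 ratio of group FPKM against transcript length (log axis) in the 3 comparisons, with 1 in 40 of 12130 loci in grey, the running median over about 500 loci as a line and the 10 reference genes in red. Ppia lies below the line and Gapdh above it in both comparisons with the affected group, and 299 of the 304 sampled loci are inside the axes.

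Markers of cell types that the tissue could hold were read in the same table, and none of those with a row of its own was at 0 in any group. The 10 microglial markers summed to 113, 119 and 93.8 FPKM in the control, unaffected and affected groups, and 4 were lower and none higher in the affected group against the control group, where 15.9% of all loci were lower and 17.8% higher. This order of groups was also that of H2afz, Hprt, Ppia, Sdhaf2, Tbp and Gusb and of the endothelial sums. Of 12 markers of cycling cells, 4 were higher in the unaffected group than in the control group, where 7.33% of all loci were, and 4 in the affected group, with Mcm2 alone in both counts and sums of 398, 458 and 419 FPKM. Of 10 endothelial markers 6 were higher and 1 lower in the affected group, with a median of 0.27. Their sums were 137, 139 and 122 FPKM, and Itm2a, the most abundant of them, went from 49.5 and 52.7 to 32.3 FPKM. Of 9 cortical markers 5 were higher and none lower in the affected group, with a median of 0.30, and of 7 meningeal markers 2 were higher and 1 lower, with sums of 91.9, 85.1 and 84.5 FPKM. The 6 choroid plexus markers past the filter summed to 997, 1323 and 1111 FPKM and the 3 blood markers past it to 21, 30.7 and 21.5 FPKM. The loci that join Hba-a1 with Hba-a2, and Hbb-b1 and Hbb-b2 with other globin genes, are not in the blood sum. The part of these cell types in the levels of the reference genes was not tested.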

How the data were processed

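Libraries were made with the Illumina TruSeq kit from 9 fetuses, 3 in each of 3 groups, and read as 50-base pairs. The labels give mm10, Bowtie2 (2.2.4.0), Cufflinks and Cuffdiff, and the methods also name STAR and TopHat. The authors deposited 1 FPKM per group and locus, together with fold changes, test statistics, p-values and q-values of their own comparisons, which were not used. Columns that hold a single animal numbered 0, so limma, planned for such columns, was not run, and no test, error or depth could be given.

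Log2 ratios were computed from the FPKM without a pseudocount, for 15455 loci with a mean of at least 1 FPKM and no group at 0. The named genes are the 10 references, the RT-qPCR targets, the most abundant and most variable gene of each list, Actg1, H2afv, the 3 nearest neighbours (mean of at least 10 FPKM) and the 5 steadiest loci (at least 100 FPKM). Genes named beyond this rule, such as Ywhab, Gapdhs, Eef1a1 and the genes sharing a locus or primers with a reference, were chosen after their values were seen. Some items of these lists are not reported here. Members and lists were chosen with earlier results of these data known. Transcript lengths came from GENCODE M21, taking the longest RefSeq-linked transcript within 500 bases of the locus, a choice made after seeing the data, and were found for 98.2% of loci with 1 symbol. Alternatives were a pseudocount of 1, limits of 1.1-fold and 1.5-fold, no filter, median centring, trimmed means, length correction, loci with 1 symbol and indexes without 1 gene. The calculations were tested on simulated data and run in Python 3.11.15 with pandas 2.3.3 and numpy 2.4.6.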

Additional observations from a re-analysis of the deposited data

How the results depend on the processing

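No paired analysis was possible because the table holds 1 value per group and no value of a single animal, and leaving out a replicate was not possible for the same reason. The number of reference genes past the limit in the unaffected group against the control group was 0 and became 2 at 1.1-fold, 1 with centring on the median of all loci, 1 with the length trend removed and 2 with the longest coding transcript as the length. Against the control group the affected group had 5, which became 0 at 1.5-fold and 2 with the length trend removed, and against the unaffected group it had 4, which became 0 at 1.5-fold. With the length trend removed, the log2 ratio of the mean of all 10 genes became -0.036 in the affected group against the control group and 0.0091 against the unaffected group, that of Gapdh and Ywhaz became 0.18 in the latter comparison and that of H2afz and Ywhaz -0.032. With the longest coding transcript, a choice made after seeing the data, the last 3 values were -0.054, 0.19 and -0.017, and H2afz and Ywhaz were at 0.0012 in the affected group against the control group. No value past the limit in the deposited FPKM changed sign, but B2m in the affected against the unaffected group went from -0.05 to 0.36 with the length trend removed. Other values inside the limit crossed 0 as well, among them means of several reference genes and the ratios of Hprt and Tbp. The other 87 recomputed counts and indexes stayed within 0.1 on the log2 scale or 1.5 times the count. The share of all loci past 1.2-fold in the unaffected group against the control group was 16.9%, 28.1% without the filter, 7.76% for loci with 1 symbol, and 8.51% and 10.1% from 5 and 100 FPKM upward, which were added after seeing the data. The missing spread between animals limits every value.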
